A study of Porphyridium purpureum with 12 samples.

Results

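A set of 51 genes of the unicellular red alga Porphyridium purpureum rose in steps as nitrate was drawn down, with a first rise at intermediate residual nitrate and a further rise at the lowest level sampled. They were chosen from 9898 genes by their own measured counts. The counts of the 12 libraries were divided by DESeq2 median-of-ratios size factors, and each condition was taken as log2 of its mean normalized count plus 1. A gene was kept when NL1 and NL2 were each at least 0.8 above NR, LND was at least 0.8 above each of NL1 and NL2, and the LND mean was at least 50. In all, 55 genes met these conditions, and 51 remained after 8 genes named as exceptions were left out. Of those 8, pyruvate decarboxylase POR0764, glutamate dehydrogenase POR3485, alpha-amylase POR4239 and complex I flavoprotein POR6362 met the conditions. Alcohol dehydrogenase POR6665, phosphoglycerate kinase POR4739, phototropin POR7844 and flavohemoprotein POR5270 did not.

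Strain 1380/1A was grown in photobioreactors under constant light, and cells were taken at 1.5 g/L residual NaNO3 (nitrogen-replete, NR), 0.6 g/L (nitrogen-limited, NL1), 0.5 g/L (NL2) and 0.3 g/L (late-stage nitrogen depletion, LND, called ND in the sample labels). Each condition had 3 libraries of polyA RNA, which the labels describe as technical libraries from 1 biological sample, so every error given here is the spread between libraries and not between cultures. NR was sampled at the start of the logarithmic phase, NL1 and NL2 before the stationary phase, and LND in it, so nitrate level and culture age cannot be told apart. A bulk library also cannot tell a change in RNA per cell from a change in the kinds of cells present.

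Microalgae that run short of nitrogen commonly stop dividing and take down nitrogen-rich proteins, while carbon that is still being fixed goes into storage and extracellular polysaccharides. Mitochondrial complex I, the NADH dehydrogenase of the respiratory chain, takes electrons from NADH, passes them to ubiquinone and pumps protons across the inner membrane. Its flavoprotein 1 subunit binds NADH and carries the flavin, and flavoprotein 2 carries an iron-sulfur cluster beside it. Of the 51 genes, 47 carried no product name in the gene lists used here, and POR0402 was named only as a hypothetical protein. The other 3 were POR0214 (complex I flavoprotein 1), POR6506 (complex I flavoprotein 2) and POR9133 (an SH3 domain-containing protein). The lists cover only some of the genes, so a missing name does not mean that the study gave none.

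Library totals ran from 6398926 counts in NR replicate 3 to 30556820 in NL2 replicate 2. Replicate libraries differed by more than counting error, with a chi-square of 11.5 to 99.1 for each degree of freedom between libraries of 1 condition. Markers of the alga (psbO, psbP, psaO, LHCA4, nitrate reductase and ferredoxin-NADP reductase) had 636 to 96708 normalized counts in every library. NR replicate 3 stood apart. It was the lowest of the 3 NR libraries for 35 of the 51 genes, against 45.2% of the 8580 genes with an LND mean of at least 50, and 7 of the 51 lay below 0.5 times both other NR libraries (13.7%, against 7.58%). The log2 ratio of NR replicate 3 to the mean of the other NR libraries had a median of -0.49 over the 51 genes, against -0.02 over the 8580 genes. A low NR replicate 3 lowers the NR mean and so helps a gene meet the conditions. The contrast with the 8580 genes is thus in part fixed by the choice. When NR replicate 3 was left out, 40 genes met the conditions and 32 of the 51 were among them.

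The share of all counts taken by the 51 genes grew at both steps. It was 0.979% to 1.35% over the NR libraries, 2.51% to 2.78% over NL1, 2.47% to 2.60% over NL2 and 4.74% to 5.00% over LND. The ranges of NL1 and NL2 overlapped, and both lay between those of NR and LND. The LND libraries were above all 6 NL libraries for all 51 genes (22.0% of the 8580 genes), and the NL libraries were above all NR libraries for 48 (21.6%). The exceptions were POR0339, POR4459 and POR6506, where a single NL2 library lay within the NR range. These values chose the set and are a description.

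**Figure D1:**
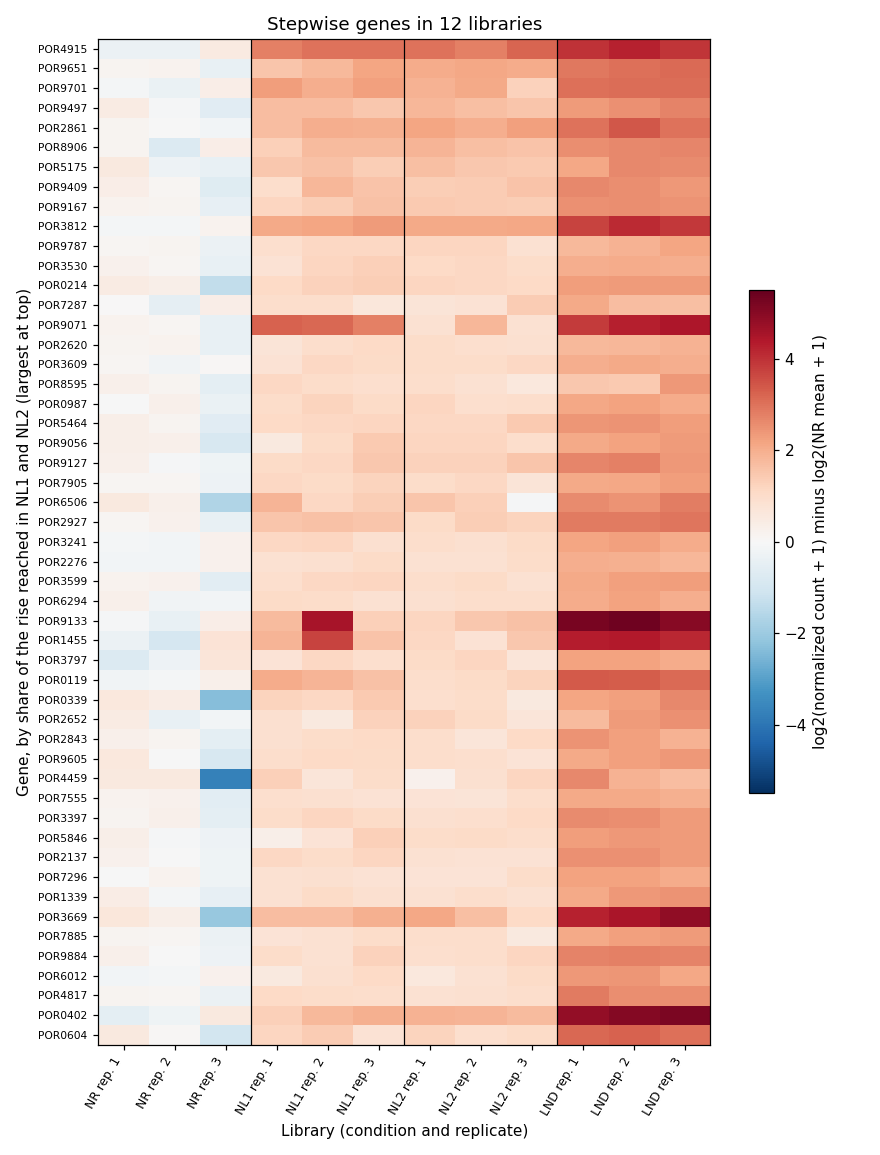
Level of the 51 genes (rows) in the 12 libraries (columns), as log2(normalized count + 1) minus log2(NR mean + 1), with genes ordered by the share of their rise that NL1 and NL2 had reached. LND libraries are the darkest red in every row, NR replicate 3 is pale to blue for most genes, and POR9133 and POR1455 are dark in NL1 replicate 2.

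Across the set, LND was 3.51-fold to 36.8-fold above NR, with a median of 5.16-fold. The early step, the mean log2 level of NL1 and NL2 minus NR, had a median of 1.07 and ran from 0.84 to 2.96. The late step, LND minus the mean log2 level of NL1 and NL2, had a median of 1.21 and ran from 0.88 to 3.25. The steps were of like size in most members, and 33 of the 51 had covered 40% to 60% of their log2 rise by NL. Each step had to be at least 0.8, which bounds this share, most tightly where the rise is small. The balance of the steps is thus in part fixed by the choice. The median difference over the set was 1.11 in NL1 minus NR and 2.37 in LND minus NR, against -0.05 and -0.03 over all 9687 genes with at least 1 count.

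Few genes in the table did both things. With the LND mean at 50 or more, 985 genes (9.95% of all genes in the table) met both NL conditions and 747 (7.55%) met both LND conditions. The size of the overlap was not tested. The 55 genes that met all are 5.58% of the 985 and 7.36% of the 747. The shares of all genes, 7.55% and 9.95%, also count genes below the LND floor, so they are not a like comparison. Both steps also use the NL1 and NL2 means, with opposite sign. In the plot of early and late steps they lie in the corner where both are positive, which also holds genes that missed a condition.

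**Figure D2:**
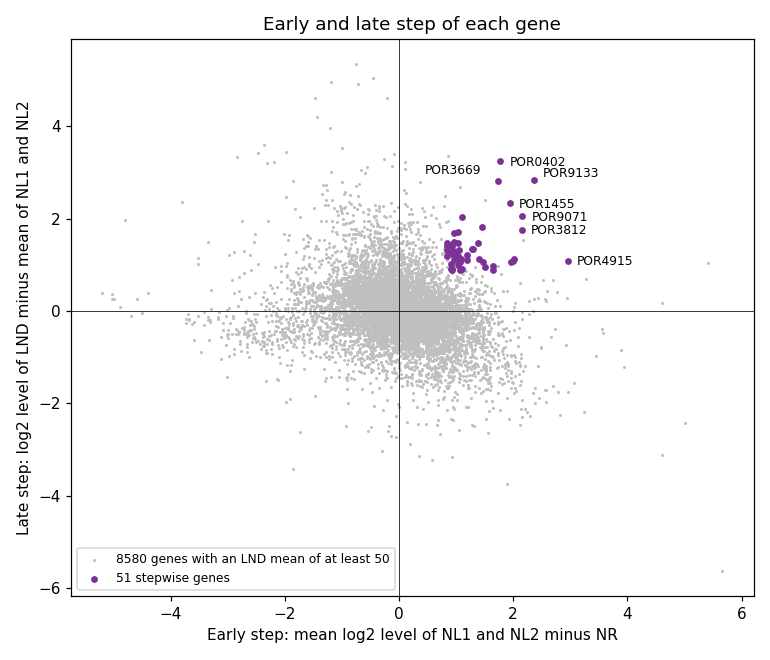
Early step (x axis, log2) against late step (y axis, log2) for 8580 genes with an LND mean of at least 50 (grey) and the 51 stepwise genes (purple). The 51 genes lie at or above 0.84 on the x axis and at or above 0.88 on the y axis, which the choice of members fixes, with POR0402 highest and POR4915 farthest right.

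The largest rises in the set were those of POR9133, POR0402, POR3669 and POR1455. POR9133, the SH3 domain-containing protein, belongs to a class of proteins whose SH3 domain binds proline-rich stretches of partner proteins. It had 187, 146 and 255 normalized counts in the NR libraries, 652, 4516 and 492 in NL1, 451, 558 and 607 in NL2, while the LND libraries had 7264, 8151 and 6267. All NL libraries were above the NR libraries and below the LND libraries, and LND was 36.8-fold above NR (log2FC 5.20 ± 0.23 SE). NL1 replicate 2 was far above the other NL1 libraries. Without NL1 replicate 2 the log2FC in NL1 vs. NR was 1.59, against 3.32 with it, and in LND vs. NL1 it was 3.66, against 1.94 with it.

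POR1455 had the same library out of place. It had 295, 192 and 611 normalized counts in NR, 1326, 4780 and 1091 in NL1, 802, 643 and 1029 in NL2, while the LND libraries had 7280, 7589 and 6503. The lowest NL library, NL2 replicate 2, was just above the highest NR library, NR replicate 3. LND was 19.5-fold above NR (log2FC 4.29 ± 0.37 SE). Its log2FC in LND vs. NL1 was 2.56 without NL1 replicate 2, against 1.57 with it.

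POR0402, the hypothetical protein, took most of its rise late. It had 161, 195 and 344 normalized counts in NR, 587, 810 and 904 in NL1, 884, 864 and 774 in NL2, while the LND libraries had 6628, 7725 and 8529. The NL1 and NL2 libraries overlapped, and the lowest LND library was above every NL library by a wide margin. LND was 32.7-fold above NR (log2FC 5.05 ± 0.29 SE) and 9.49-fold above the mean of NL1 and NL2.

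POR3669 shared this late-weighted shape. It had 379, 306 and 58.3 normalized counts in NR, 810, 795 and 961 in NL1, 1073, 779 and 533 in NL2, while the LND libraries had 4731, 5565 and 7293. NR replicate 3 was far below the other NR libraries. LND was 23.7-fold above NR (log2FC 4.48 ± 0.49 SE), and the log2FC was 4.07 without NR replicate 3. POR0402 and POR3669 are the 2 members on scaffold scf246_12.

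POR4915 took most of its rise early. It had 541, 528 and 939 normalized counts in NR, 4591, 5236 and 5356 in NL1, 5304, 4618 and 6102 in NL2, while the LND libraries had 10543, 12440 and 10244. Every NL library was several times above every NR library, and the LND libraries lay higher again. The mean of NL1 and NL2 was 7.77-fold above NR, and LND was 2.13-fold above that mean. It had reached 73.0% of its log2 rise by NL, the largest share of the set.

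**Figure D3:**
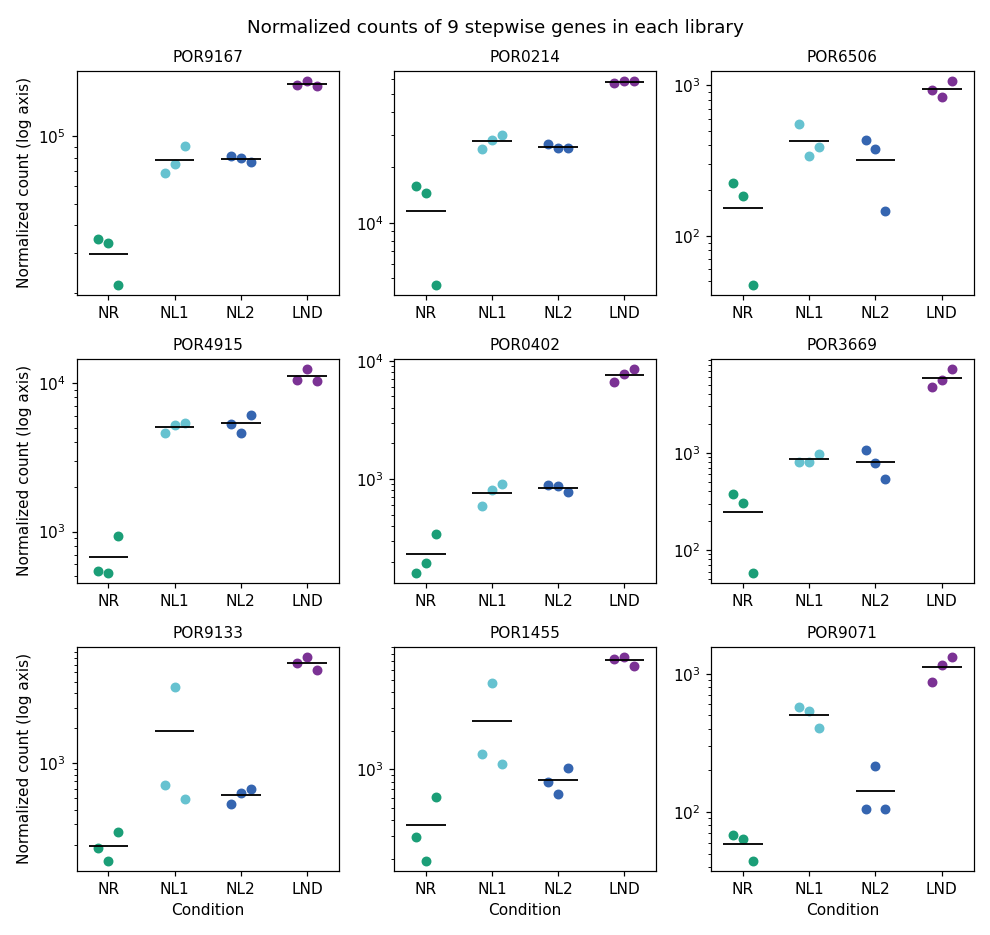
Normalized counts (log axis) of 9 stepwise genes in each library of the 4 conditions, with points for libraries and a line for the mean of 3 libraries. LND points are the highest in every panel, NR replicate 3 is low for POR9167, POR0214, POR6506 and POR3669, and NL1 replicate 2 is high for POR9133 and POR1455.

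The members that had risen most by NL were, after POR4915, POR9651 (65.1% of the log2 rise), POR9701 (65.0%), POR9497 (64.8%) and POR2861 (64.0%). In POR9651 the means were 2609 ± 582 (SD, n = 3 libraries, as for each mean below) normalized counts in NR, 9494 ± 2105 in NL1, 10900 ± 378 in NL2, while the LND mean was 21128 ± 1513. In POR2861 they were 250.6 ± 26.6 in NR, 928 ± 99.8 in NL1, 1104 ± 94.8 in NL2, while the LND mean was 2215 ± 387. Over the set, 7 genes had covered more than 60% of the rise by NL and 11 less than 40%.

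The members that had risen least by NL were POR0604 (35.1% of the log2 rise), POR0402 (35.4%), POR4817 (36.2%), POR6012 (36.4%) and POR9884 (37.5%). POR0604 had 344.3 ± 163 normalized counts in NR, 763 ± 157 in NL1, 724 ± 66.9 in NL2, while the LND mean was 3067 ± 237. POR4817 had 1631 ± 292 in NR, 3313 ± 139 in NL1, 3047 ± 142 in NL2, while the LND mean was 10306 ± 1195. The NL libraries of both genes lay close together, and their LND libraries stood clear of them. The early and late extremes were read from the same counts that chose the set, and no test of the difference between them was made.

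Members with large counts carried most of the set's reads. The 10 genes with the largest LND means held 74.5% of the set's normalized counts in LND and 78.0% in NR. Gene lengths were not in the table, so levels of different genes were not compared. POR9167 had 34647, 33275 and 21710 normalized counts in NR, 68509, 75465 and 90089 in NL1, 81859, 79751 and 76845 in NL2, while the LND libraries had 169881, 176664 and 167139. Its NL1 and NL2 libraries overlapped and LND was 5.73-fold above NR (log2FC 2.49 ± 0.22 SE).

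POR2137 had 32407, 27033 and 23223 normalized counts in NR, 61100, 55402 and 62949 in NL1, 48914, 47984 and 48255 in NL2, while the LND libraries had 157795, 158731 and 139569. The 3 NL2 libraries lay below the 3 NL1 libraries. The others of these 10, POR9787, POR7885, POR3530, POR9056, POR9409, POR0214, POR9127 and POR3609, were 3.89-fold to 6.17-fold higher in LND than in NR. They carried no product name in the gene lists used here, except POR0214.

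Both complex I members were called higher in LND vs. NR in edgeR, while calls of their early step depended on the test and on NR replicate 3. In edgeR with all libraries neither was called in NL1 vs. NR or in NL2 vs. NR. The likelihood ratio test of DESeq2 called both higher in NL1 vs. NR, and POR0214 also in NL2 vs. NR. The study, which used a likelihood ratio test on the same libraries, likewise lists both as higher in NL1 and POR0214 in NL2. POR0214, flavoprotein 1, had 15744, 14576 and 4626 normalized counts in NR, 25228, 28197 and 29727 in NL1, 26550, 25418 and 25247 in NL2, while the LND libraries had 56724, 58522 and 58461. NR replicate 3 was well below the other NR libraries, while the LND libraries differed by little. LND was 4.97-fold above NR (log2FC 2.29 ± 0.38 SE), and the log2FC was 1.91 without NR replicate 3. Against NR, its adjusted p in edgeR was 0.027 for NL1 and 0.032 for NL2, where a call required an adjusted p under 0.01 beside a log2FC of 1 or more in size. Without NR replicate 3 its NL2 vs. NR log2FC in edgeR was 0.81, against 1.17 with it. POR0214 then no longer met the conditions, which use the log2 mean normalized counts and not the log2FC of edgeR.

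POR6506, flavoprotein 2, had 224, 185 and 47.2 normalized counts in NR, 552, 338 and 391 in NL1, 435, 376 and 147 in NL2, while the LND libraries had 931, 835 and 1071. NL2 replicate 3 was below NR replicates 1 and 2, so NL2 and NR overlapped. LND was 6.22-fold above NR (log2FC 2.56 ± 0.41 SE). Against NR, its adjusted p in edgeR was 0.035 for NL1 and 0.16 for NL2. Without NR replicate 3 its NL2 vs. NR log2FC was 0.69, against 1.07 with it, and POR6506 no longer met the conditions either. POR6362 carries the same product name and met the conditions as an exception, with 312.2 ± 81.0 in NR, 664 ± 83.1 in NL1, 585 ± 36.9 in NL2, while the LND mean was 1587 ± 126. How the counting treated reads shared between 2 genes of the same name was not stated, so the split between POR6506 and POR6362 is uncertain.

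The other 4 complex I genes in the tables had the early step without the late one. They are 2 acyl carrier genes, POR6026 and POR8552, and the beta subcomplex subunits 7 (POR6624) and 9 (POR5888). All 4 were called higher in NL1 vs. NR (log2FC 1.23 to 1.62), where 6.55% of all genes tested were. They were also called higher in NL2 vs. NR (1.19 to 1.69), where 7.33% were. None of the 4 was called in LND vs. NL1 (log2FC -0.91 to -0.02) or in LND vs. NL2 (-0.88 to -0.03). Over all genes tested, 12.3% and 13.5% were called there in either direction, so the lack of calls in 4 genes says little by itself. In LND vs. NR, 2 of the 4 were called higher and none lower, where 7.96% of all genes tested were called higher. The study took this list from its own DEGs of these libraries, so its direction is not independent evidence. No test compared the flavoprotein genes with these 4, and the flavoprotein genes were chosen for their late step.

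**Figure D4:**
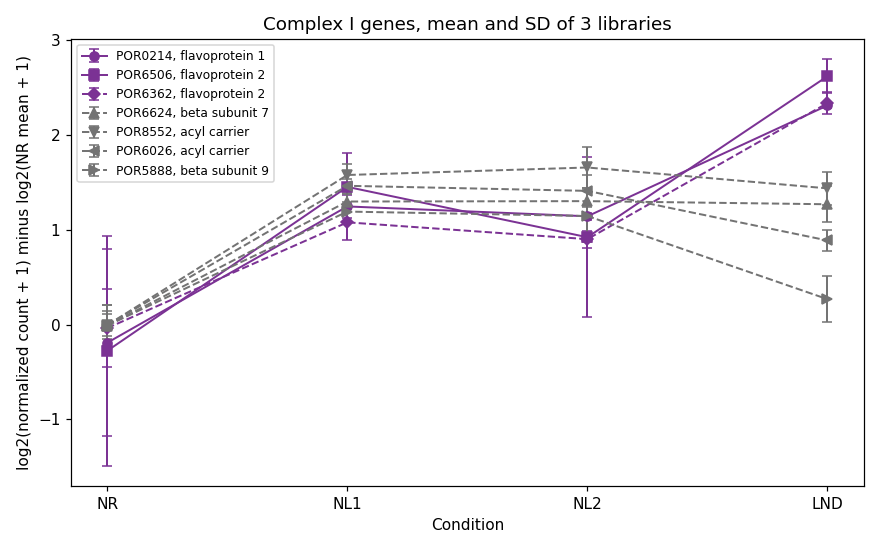
Levels of 7 complex I genes in the 4 conditions as log2(normalized count + 1) minus log2(NR mean + 1), mean and SD of 3 libraries. The 3 flavoprotein genes (purple, the solid lines being members of the set) are above 2 in LND, while the 4 other genes (grey) are highest in NL1 or NL2, and the wide NR bars of POR0214 and POR6506 come from NR replicate 3.

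The other pathway lists of the study held 3 genes that met the conditions, each left out by name as an exception. They are POR4239 among the 89 carbohydrate-active enzymes (CAZymes), POR0764 among the 20 glycolysis and gluconeogenesis genes and POR3485 among the 10 nitrogen metabolism genes, so the absence of these lists from the set was fixed by the choice. None of the 13 photosynthesis genes or of the 9 nucleotide sugar genes met the conditions. The photosynthesis genes had the early step, with 12 of 13 called higher in NL1 and 12 of 13 in NL2, both against NR. Over all genes tested, 6.55% and 7.33% were called higher there. In LND vs. NL2, 11 of the 13 were called lower and none higher (6.52% of all genes tested were called lower), and in LND vs. NR 2 were called higher and none lower. These lists, apart from that of all CAZymes, were drawn by the study from DEGs of the same libraries.

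Small heat shock proteins, chaperones that hold unfolded proteins, were also higher in LND, without the early step. Their 4 genes summed to 11739 to 27400 normalized counts over the NR libraries, 7568 to 12770 over NL1, 9534 to 9753 over NL2 and 47071 to 52169 over LND. All 4 were called higher in LND vs. NL1 (6.51% of all genes tested) and in LND vs. NL2 (6.96%). In NL2 vs. NR none was called higher (7.33% of all genes tested) and 2 were called lower. Calls in either direction made up 16.4% of all genes tested there. All 4 are on a list of DEGs of the same libraries, so their calls are not independent evidence. NR replicate 3 had the lowest sum of the NR libraries, as it had for most of the stepwise genes. The part of a stress state in the late step was not tested.

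In the tests of edgeR on the contrasts that the choice used, the members' calls add no evidence. In LND vs. NR, 50 of the 51 were called higher, with 7.96% of the 9150 genes tested called higher, and POR4459 was not called. In NL1 vs. NR, 29 of 51 were called higher (6.55% of all tested), and in NL2 vs. NR 22 of 51 (7.33%). In LND vs. NL1 the count was 41 of 51 (6.51%), and in LND vs. NL2 it was 40 of 51 (6.96%). No member was called lower in any of these comparisons. The NL1 count fell to 17 without NL1 replicate 2, and the LND counts against NL1 and NL2 fell to 17 and 22 when library totals were the only scaling. Comparisons with NR share its libraries, so their values are not independent.

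NL2 (0.5 g/L nitrate) vs. NL1 (0.6 g/L) was not itself among the conditions, but they bound it. Since both NL levels had to lie at least 0.8 above NR and 0.8 below LND, a member's NL2 and NL1 means could differ by no more than its log2 rise in LND less 2 such steps. This limit was 0.21 to 3.60 in log2, with a median of 0.77, and it was 0.5 or less for 9 members. Small differences between NL2 and NL1 are thus in part fixed by the choice, and no absence of change is read from them. None of the 51 genes was called in edgeR, where 0.0% of the 9104 genes tested were called, and the smallest adjusted p of a member was 0.27. The median log2FC of the members was -0.04, against -0.01 over all genes tested. Of the members, 34 had a log2FC below 0 and 17 above, and in 42 its size was at most 0.3. At an unadjusted p under 0.05, 7 members differed and all 7 were lower in NL2 (13.7%, against 4.51% of all genes tested that were lower at this p).

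Some members were lower in NL2. POR9071 had 106, 214 and 105 normalized counts in NL2, against 572, 535 and 403 in NL1. Its NL2 and NL1 libraries did not overlap, and its log2FC was -1.82 ± 0.29 SE, with an adjusted p of 0.27 in edgeR. It passed in the likelihood ratio test of DESeq2 without independent filtering (adjusted p = 2.9e-06) and was left without an adjusted p by DESeq2 with that filter. In edgeR it was called when NL1 replicate 3 was left out (adjusted p = 0.0096), and over the other edgeR settings its adjusted p ran from 0.039 to 0.82. Its LND libraries had 869, 1151 and 1322 and its NR libraries 68.0, 64.1 and 44.4, so NL2 was the NL condition closer to NR.

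POR0119 was alike. It had 2981, 3156 and 3570 normalized counts in NL2, against 6322, 5573 and 4620 in NL1, with 15998, 15456 and 13117 in LND and 1349, 1415 and 1838 in NR. No NL2 library reached an NL1 library, and the log2FC was -0.77 ± 0.14 SE with an adjusted p of 0.27 in edgeR. Its adjusted p was 0.00031 in the likelihood ratio test of DESeq2, but the change is smaller than the log2FC of 1 required of a call.

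The other members with the largest differences between NL2 and NL1 were POR9133, POR1455 and POR0339. The log2FC of POR9133 was -1.81 ± 0.65 SE, and it was -0.09 without NL1 replicate 2. That of POR1455 was -1.54 ± 0.45 SE, and it was -0.56 without NL1 replicate 2. POR0339 had 703, 760 and 544 normalized counts in NL2, against 871, 817 and 1026 in NL1, a log2FC of -0.44 ± 0.16 SE. None of these 3 passed in edgeR (adjusted p from 0.50 to 0.52), and the differences of POR9133 and POR1455 shrank without NL1 replicate 2. Over the set, 6 members had all NL2 libraries below all NL1 libraries (7.51% of all genes tested) and 1 member had them all above (7.38%).

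**Figure D5:**
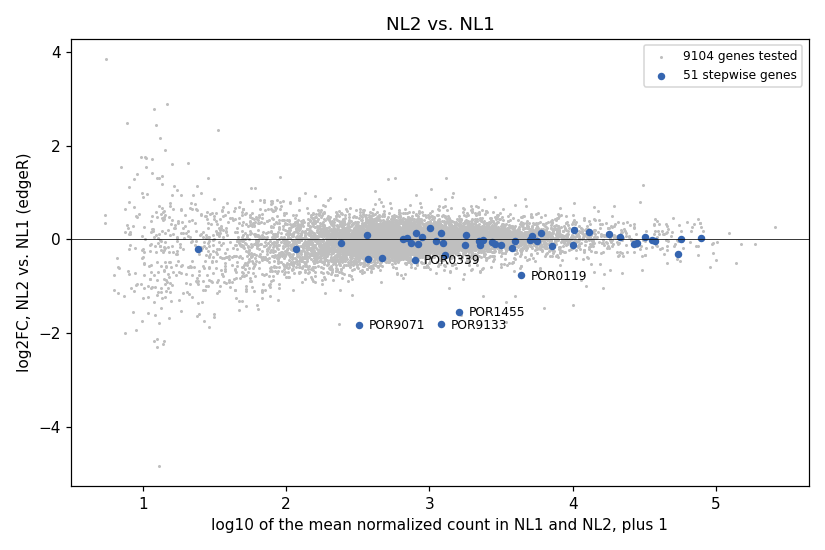
The log2FC in NL2 vs. NL1 (y axis, edgeR) against log10 of the mean normalized count in both conditions plus 1 (x axis) for 9104 genes tested (grey) and the 51 stepwise genes (blue). Most of the 51 lie close to 0, as the conditions in part require, and POR9071, POR9133, POR1455 and POR0119 lie below it.

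The spread between libraries of the set differed by condition. The median coefficient of variation of the members was 28.0% (NR), 10.8% (NL1), 9.91% (NL2) and 8.89% (LND). Over the 8580 genes with an LND mean of at least 50 it was 19.2% (NR), 12.4% (NL1), 11.4% (NL2) and 11.1% (LND). Among the members, NR libraries thus lay furthest apart and LND libraries closest together, and the order was the same over the 8580 genes. A low NR library helps a gene meet the conditions, so the choice can raise the members' NR spread. The median SE of the members' log2FC was 0.22 in NL1 vs. NR, against 0.11 in LND vs. NL2.

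Several members lay close to the conditions. The smallest LND mean of a member was that of POR4459, at 56.9 normalized counts, with POR8595 at 219 and POR0987 at 500.0, and outside that condition alone was POR0598 at 18.4. POR4459 had 0 counts in NR replicate 3, which allows up to 3 counts in that library. For the NL1 step, POR7296 (0.84), POR5846 (0.85) and POR6012 (0.85) were nearest inside, and POR4611 (0.79), POR4724 (0.74) and POR4784 (0.68) nearest outside. For the NL2 step, the members were POR4459 (0.81), POR8595 (0.81) and POR2137 (0.81), and the genes outside POR2374 (0.78), POR6090 (0.77) and POR5916 (0.76).

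The late step had similar neighbours. For LND over NL1, POR8595 (0.80), POR9701 (0.88) and POR3530 (0.89) were inside, and POR7271 (0.79), POR9526 (0.78) and POR9238 (0.77) outside. For LND over NL2, POR7287 (0.81), POR9787 (0.88) and POR9497 (0.89) were inside, and POR3677, POR8160 and POR4734 (0.79 each) outside. The set thus has no sharp edge, and 109 genes met conditions set at 0.6 and 20 met them at 1.

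Gene identifiers in the table name a scaffold, a property that the choice did not use. The 51 genes fell on 12 of the 52 scaffolds. Scaffold scf295_1 held 15 of them (29.4%) and 26.5% of all genes in the table. The small scaffold scf250_33 held 3 members, POR0339, POR1455 and POR9701, among its 21 genes. Of the 14 genes there with an LND mean of at least 50, 3 are the members. Of the other 11, 3 were at least 1 in log2 above NR in LND (POR4585, POR5227 and POR6561, picked here after their values were seen), against 11.0% of all genes with such a mean. POR5227 had a mean of 664 normalized counts at NR, 20819 at NL1, 12542 at NL2 and 18123 at LND, so its level was highest in NL1. The scaffold was picked after the members were known, and its share of members was not tested.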

How the data were processed

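The deposited table holds raw counts for 9898 genes in 12 libraries, which the authors made with STAR 2.7.8a as aligner and featureCounts 2.0.1 as counter (tools as in the submitters' processing notes). All 12 columns matched a sample label. The libraries are strand-specific, but the strand setting of the counting was not stated. Normalized counts are counts divided by median-of-ratios size factors (pseudocount 1 on the log2 scale). For each pair of conditions the 6 libraries were fitted separately (edgeR 4.0.16, R 4.3.3) by the quasi-likelihood F-test after TMM and filterByExpr (minimum count 10), with Benjamini-Hochberg adjustment across every gene tested. Calls required an adjusted p below 0.01 together with a log2FC of 1 or more in size. An SE is the log2FC divided by the square root of F. A floor for a count of 0 is 3 counts and covers counting error only. DESeq2 1.42.0, other scalings, no filter, a replicate block and leaving out each library were alternatives. DESeq2 without independent filtering was added after seeing the data. The members and gene lists were chosen with earlier results of these data known. Product names come from gene lists drawn from the study's tables, which cover only some of the genes. Genes were named by product name, LND mean, size of rise, share of the rise by NL, NL2 against NL1 and nearness to a condition. Scripts were tested on simulated data.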

Additional observations from a re-analysis of the deposited data

How the results depend on the processing

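The size of the set moved with scaling, step and library. It was 24 genes with library totals, 54 with TMM-scaled sizes, 20 with steps of at least 1, 109 with steps of at least 0.6, and 40 to 69 when 1 library was left out. The extremes were without NR replicate 3 and without NR replicate 1. Of the 51 genes, 24 met the conditions in all 12 sets that left out a library, and 24 under both other scalings. Only 12 of the 51 met them in all of these. Library totals moved the median LND minus NR over all genes to -0.37, and that of the members to 2.06, so the members' excess over all genes was 2.43, against 2.40 as reported. Leaving out a library gave 2.28 to 2.60 for the members' LND minus NR and -0.09 to -0.03 for NL2 minus NL1. With library totals, members called were 17 in LND vs. NL1 and 22 in LND vs. NL2. Leaving out a library gave 17 to 29 in NL1 vs. NR, 18 to 26 in NL2 vs. NR, 48 to 50 in LND vs. NR, 35 to 43 in LND vs. NL1 and 38 to 43 in LND vs. NL2. In NL2 vs. NL1 it gave 0 to 1, POR9071 being called without NL1 replicate 3 and also in DESeq2 without independent filtering (1 member). The cause was not tested. Same-numbered libraries correlated at -0.22 to 0.10 and only 4 of 18 matched best with their own number, so the numbers do not pair them. With the replicate block, members called were 29 (NL1) and 27 (NL2) against NR, 49 in LND against NR, 42 in LND against NL1, 39 in LND against NL2 and 0 in NL2 against NL1. Of 2844 log2FC values of the 34 named members under alternatives, 109 lost a call, 84 gained one and no called value changed sign. Depth limits POR4459, with under 100 counts per library after scaling.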

Other observations

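NL1 replicate 2 held a group of genes far above the other NL1 libraries. Among genes with an LND mean of at least 50, 10 were more than 4-fold above both other NL1 libraries in it, and POR9133 is among them. The other libraries had 0 to 10 such genes, with 10 in NR replicate 3. The highest was POR3160, with 13338 normalized counts in NL1 replicate 2 and 1428 and 1194 in the other NL1 libraries. POR7213 had 34677 in NL1 replicate 2, against 4300 and 4870 in the other NL1 libraries.

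POR7271, which missed the set only by its step in LND over NL1 (0.79), had a mean of 3213 normalized counts at NR, 161929 at NL1, 114855 at NL2 and 279035 at LND. It had the largest early rise among the genes nearest outside the conditions.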
